A study of Sus scrofa with 2 samples.

Results

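Kinesins, cytoplasmic dynein and tubulins are the motors and tracks of the microtubule cytoskeleton, and their transcripts were measured here in granulosa cells from follicles of pigs (Sus scrofa). The genes were chosen by name: messenger RNA entries of the 2 deposited tables whose symbol begins with KIF and a digit, with TUBA, TUBB, TUBD, TUBE or TUBG, or with DYNC, DYNLL, DYNLRB or DYNLT. The rule found 64 genes among 22826 messenger RNA entries, of 34570 entries in all. They were sorted, mostly by known role, into 11 mitotic kinesins, 12 transport kinesins, 12 other kinesins, 11 dynein subunits and 9 alpha and beta tubulins. A centrosomal group of 9 genes holds the gamma, delta and epsilon tubulins and the gamma-tubulin complex proteins. KIF2A and KIF2B, both listed at 0, were put with the other kinesins, although KIF2C is in the mitotic class. The sorting was made with earlier results of these data known.

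Microtubules are hollow polymers of alpha and beta tubulin. They grow from gamma-tubulin rings, many of them at the centrosome. Kinesins walk mostly towards the growing plus end, and cytoplasmic dynein walks to the minus end. A dividing cell rebuilds its microtubules into a spindle, and a dedicated set of kinesins, transcribed mainly late in the cell cycle, builds the spindle, aligns chromosomes and completes cytokinesis. Other kinesins carry vesicles and organelles between divisions. Granulosa cells of growing follicles divide, and stop dividing when they luteinize.

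The cells came from ovaries of female Chinese Erhualian pigs and received either NC-siRNA, the control, or SMAD4-siRNA, against the SMAD shared by TGF-beta, activin and BMP signalling. RNA of 3 individuals per group was pooled, and 1 library was sequenced per group on an Ion Torrent Proton. The sources used here do not give the time after transfection, the siRNA dose or whether both groups came from the same pigs, so treatment and animals cannot be told apart. With 1 library per group no test between the conditions exists and no difference has a replicate check.

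The values are upper-quartile RPKM, that is reads per transcript length on a library scale set by the upper quartile, so levels can be compared between genes. Each ratio below is the SMAD4 siRNA value over the control value, with a 95% interval in parentheses. The interval (exact Clopper-Pearson, on the smallest whole reads behind both values) covers counting error alone, not the spread between pigs or transfections. For lists, log2 ratios were taken after adding 1 to each value, over genes whose 2 values average 1 or more, and a gene was called higher or lower from 2-fold on that scale. Reads on genes numbered at least 17680952 with control siRNA and 17394711 with SMAD4 siRNA.

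SMAD4 itself was at 85.0 with control siRNA and 47.9 with SMAD4 siRNA, a ratio of 0.563 (0.497 to 0.639). Of 11 granulosa markers 7 had reads, among them GATA4, INHBA and FOXL2, while FSHR had 9 and 7 reads and AMH, CYP11A1, CYP19A1 and INHBB were listed at 0 in both libraries. Summed values, given here and below for the control library first, were 2000 and 2185 for the granulosa markers. Those of other marker lists were 2720 and 2100 for theca, 581 and 567 for leukocytes, 278 and 244 for endothelium, 76.1 and 61.7 for oocytes and 32.5 and 23.96 for neurons. Each of these other sums came mostly from 1 gene: DCN (2151 and 1598), CD14, PECAM1, GDF9 and STMN2. The theca markers CYP17A1, INSL3 and LHCGR were listed at 0 in both libraries. The median log2 ratio of all 13988 messenger RNA entries tested was -0.05. Rescaling both libraries to equal sums multiplies each ratio by 1.09 and adds 0.12 to each log2 ratio of plain values, so ratios between 0.921 and 1 change sides.

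Of the 64 genes, 50 reached a mean value of 1. Another 11 were listed at 0 in both libraries: KIF2A, KIF2B, KIF3B, KIF5A, KIF6, KIF13A, KIF25, DYNC1LI2, DYNC2LI1, TUBAL3 and TUBGCP5. KIF2A, KIF3B and DYNC1LI2 are widely expressed genes, so a listed 0 says nothing of expression here. The remaining 3 were TUBB1 (1 and 2 reads), DYNC2H1 (0 and 2 reads) and KIF5C, a mainly neuronal conventional kinesin. KIF5C had 0 reads with control siRNA and 9 with SMAD4 siRNA, at least 2.72-fold higher when the control is set to 3 reads.

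**Figure D1:**
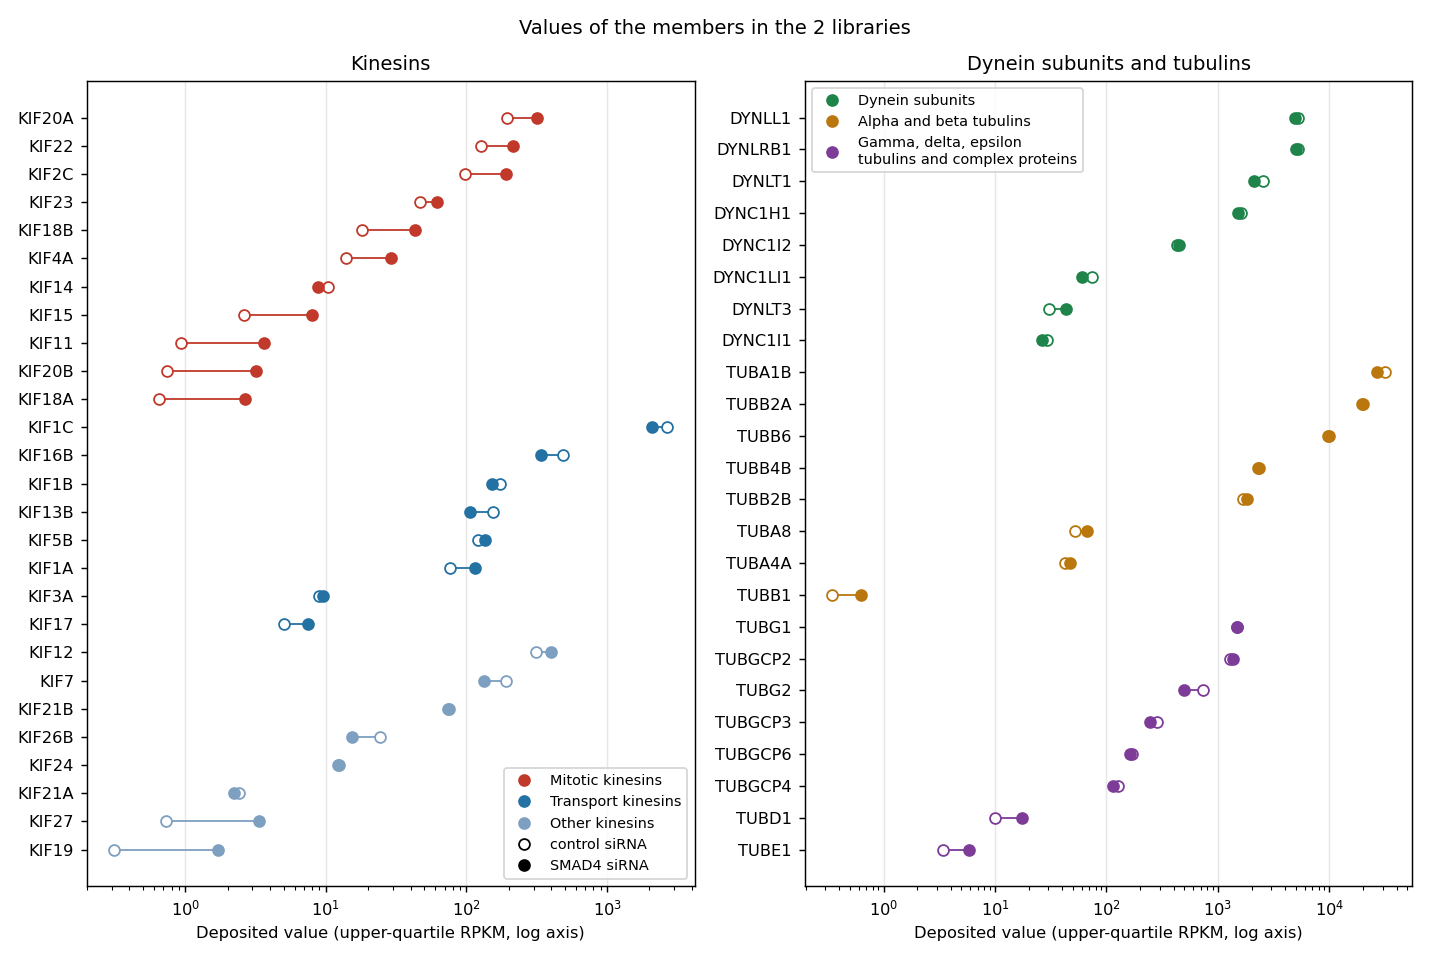
Deposited values (upper-quartile RPKM, log axis) of the 51 genes with reads in both libraries, open circles for control siRNA and filled circles for SMAD4 siRNA, coloured by class and ordered by level within it. KIF14 is the single mitotic kinesin whose filled circle lies to the left of its open circle. The circles of the abundant alpha and beta tubulins nearly coincide at levels up to 31353, while those of TUBG2, TUBD1 and TUBE1 lie apart.

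Mitotic kinesins were higher in the SMAD4 siRNA library, and the other classes were not as a group. Of 11 mitotic kinesins tested, log2 ratios were above 0 in 10, and 6 passed 2-fold upwards. Of those 6, KIF11, KIF18A and KIF20B were under a value of 1 with control siRNA and reached the minimum mean only through the SMAD4 siRNA library, so their calls are no support; the other 3 were KIF4A, KIF15 and KIF18B. Among all messenger RNA entries 45.3% were above 0, 5.22% were higher by 2-fold and 5.04% were lower by 2-fold. The class median was 1.01 on the log2 scale, or 2.01-fold on value + 1. Intervals lay wholly above 1 for 9 of the 11 and wholly below 1 for 0, where the background shares are 14.1% and 23.9%. KIF11 and KIF20B are among these 9, and with KIF18A they enter the 10 above 0 and the class median. They are no support there either. After rescaling to equal sums, the same 9 kinesins, KIF2C, KIF4A, KIF11, KIF15, KIF18B, KIF20A, KIF20B, KIF22 and KIF23, had an interval wholly above 1, where the background is 23.6%. In pooled RNA, more dividing cells and more transcript per cell cannot be told apart.

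The motors that build and power the spindle had few reads. KIF11, which slides opposed microtubules apart to make the spindle bipolar, was at 0.940 with control siRNA and 3.63 with SMAD4 siRNA, on 4 and 17 reads. Its ratio was 3.86 (1.26 to 15.8). KIF15, which can stand in for KIF11 in holding the poles apart, was at 2.62 and 7.93 on 9 and 30 reads, a ratio of 3.03 (1.401 to 7.25). Both intervals lay above 1, with sizes that counting error leaves wide. KIF11 reached the minimum mean only through the SMAD4 siRNA library, so its value is no support. Its log2 ratio of 1.25 was also under the 95th percentile of entries with 10 to under 30 reads, which was 1.54.

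Kinesins that act on chromosomes and microtubule ends gave the better measured differences. KIF2C, the depolymerase that removes faulty attachments at kinetochores, was at 97.3 and 192 on 283 and 616 reads. Its ratio of 1.98 (1.71 to 2.28) was just under 2-fold. KIF22, a chromokinesin that pushes chromosome arms away from the poles, was at 128 and 214, a ratio of 1.68 (1.34 to 2.12). KIF18B, which trims astral microtubules, was at 18.1 and 43.3 on 49 and 129 reads, a ratio of 2.39 (1.71 to 3.39). Its log2 ratio of 1.21 was reached by 0.679% of the 9129 messenger RNA entries with at least 100 reads. For the other mitotic kinesins with as many reads, this share ran from 1.29% (KIF4A) to 8.62% (KIF23). Many of those entries had far more reads than KIF18B and spread less. Among entries with 100 to under 300 reads the 95th percentile was 0.80. Its relative KIF18A, which dampens chromosome movements at the metaphase plate, was at 0.651 and 2.66 on 2 and 9 reads, a ratio of 4.09 (0.846 to 38.9) whose interval includes 1.

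The kinesins of the central spindle and cytokinesis spanned the whole range of the class. KIF20A, which carries the chromosomal passenger complex to the central spindle, had the highest level of the class, at 194 and 319 on 569 and 1030 reads. Its ratio of 1.64 (1.48 to 1.82) had the narrowest interval among mitotic kinesins. KIF4A, which works with PRC1 to size the central spindle, was at 13.96 and 29.0 on 55 and 126 reads, a ratio of 2.08 (1.504 to 2.91). KIF23, the motor of centralspindlin, was at 46.8 and 61.6, a ratio of 1.32 (1.05 to 1.65). KIF20B, a further cytokinesis motor, was at 0.743 and 3.21 on 4 and 19 reads, a ratio of 4.31 (1.43 to 17.4).

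KIF14 was the exception. It brings citron kinase to the midbody, and was at 10.3 and 8.77 on 48 and 45 reads, a ratio of 0.851 (0.554 to 1.31). Its interval includes 1 and ends below the ratios of KIF20A, KIF22, KIF2C, KIF4A and KIF18B. CIT, citron kinase itself, was at 23.4 and 39.7, a ratio of 1.69 (1.39 to 2.07).

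The 4 genes with ratios of 3 or more (KIF11, KIF15, KIF18A and KIF20B) had between 11 and 39 reads over both libraries, while KIF14, with 93 reads, had the lowest ratio of the class. The 6 kinesins with at least 100 reads, KIF2C, KIF4A, KIF18B, KIF20A, KIF22 and KIF23, had a median log2 ratio of 0.86, and 2 of them, KIF4A and KIF18B, passed 2-fold. All 6 lay above 0, against 42.2% of messenger RNA entries with as many reads, and all 6 had an interval wholly above 1, against 17.8%. In that background 1.30% were higher and 1.11% lower by 2-fold. The count of 6 kinesins past 2-fold changes with how low values are treated. It was 3 with a minimum mean value of 5 and 1 with a pseudocount of 5. It was also 1 with both libraries rescaled as for TPM, where values are smaller, only 6 of the 11 kinesins reach the minimum and the pseudocount weighs more. With equal sums alone, unit, pseudocount and minimum kept, it was 7.

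**Figure D2:**
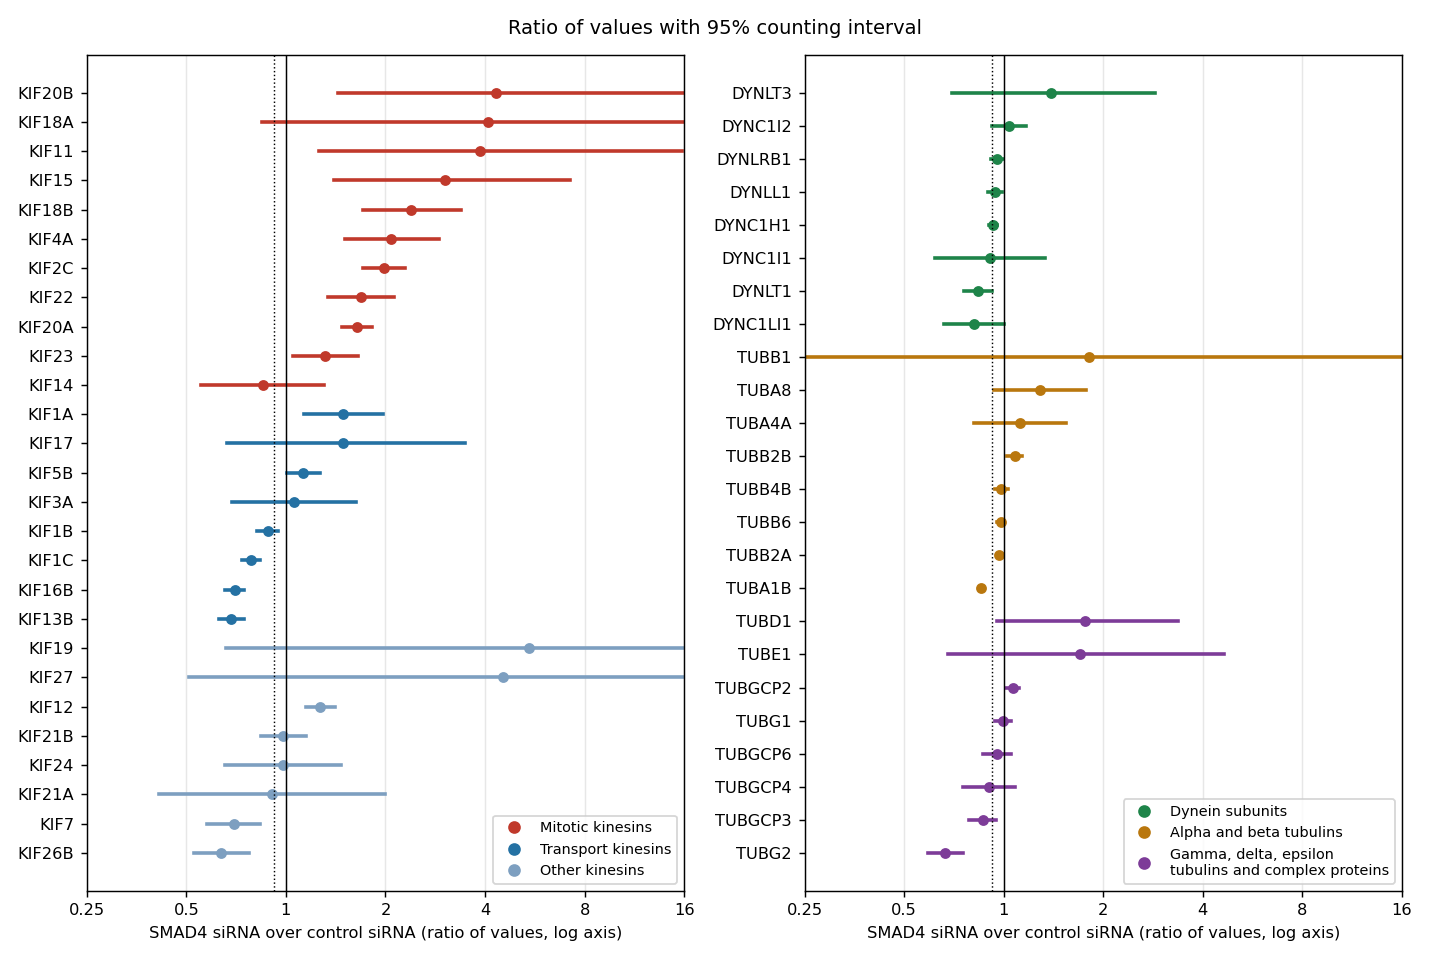
Ratio of SMAD4 siRNA over control values (log axis) for the 51 genes with reads in both libraries, with 95% counting intervals as bars, cut at the plot edges for KIF18A, KIF19, KIF20B, KIF27 and TUBB1. The dotted line at 0.921 marks where a ratio would be 1 after rescaling both libraries to equal sums. Among mitotic kinesins, the bars of KIF14 and KIF18A cross 1.

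Transport kinesins went both ways, and their best measured members were lower. Of 12 genes 8 were tested, 4 above 0 and 4 below, with a median log2 ratio of -0.06. In the background 45.3% were above 0. None was higher or lower by 2-fold, where the background shares are 5.22% and 5.04%. Intervals lay wholly below 1 for 4 and wholly above 1 for 2, where the background shares are 23.9% and 14.1%. KIF1C, which moves integrins and dense vesicles, had by far the highest level of any kinesin, at 2665 and 2094. Its ratio was 0.786 (0.736 to 0.838). KIF16B, a motor of early endosomes, was at 488 and 341 on 2213 and 1704 reads, a ratio of 0.699 (0.656 to 0.745). KIF13B, a carrier of membrane proteins, was at 155 and 106, a ratio of 0.685 (0.627 to 0.748). These 3 kept an interval below 1 after rescaling, where the background is 14.8%.

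KIF1B, which transports mitochondria and vesicle precursors, was at 173 and 152, a ratio of 0.880 (0.818 to 0.947), and after rescaling its interval included 1. On the higher side was KIF1A, its close relative known for synaptic vesicle precursors, at 76.8 and 115 on 87 and 143 reads, a ratio of 1.49 (1.14 to 1.97). KIF5B, the broadly expressed heavy chain of conventional kinesin, was at 121 and 136, a ratio of 1.13 (1.004 to 1.26). KIF3A, which drives intraflagellar transport together with KIF3B, was at 8.97 and 9.47, a ratio of 1.06 (0.688 to 1.63). KIF17, also a motor of cilia, was at 5.01 and 7.45 on 11 and 18 reads, a ratio of 1.49 (0.665 to 3.48). The last 2 are not distinguishable from 1 at this depth.

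The remaining kinesins were as mixed. Of 8 tested, 3 were above 0, where the background share is 45.3%, and 5 below, with a median of -0.02. KIF7, a ciliary regulator of Hedgehog signalling, was at 192 and 134, a ratio of 0.695 (0.578 to 0.836). KIF26B, a kinesin without motor activity that is linked to cell adhesion, was at 24.2 and 15.4, a ratio of 0.638 (0.527 to 0.771), the lowest of all 51. KIF12 was at 313 and 398, a ratio of 1.27 (1.15 to 1.41). These 3 stayed on their side of 1 after rescaling.

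KIF21A and KIF21B, which restrain microtubule growth, had ratios of 0.908 (0.414 to 1.99) and 0.983 (0.844 to 1.15). KIF24, a centriole protein that holds back cilium assembly, had 0.981 (0.655 to 1.47). The 2 members higher by 2-fold, of 8 tested, were cilium kinesins with almost no reads, where the background share is 5.22%. Both were under a value of 1 with control siRNA. They reached the minimum mean only through the SMAD4 siRNA library, so their calls are no support. KIF27, a relative of KIF7, had 1 and 5 reads, and KIF19, which limits the length of motile cilia, had 1 and 6, and both intervals include 1. Of 6 markers of motile ciliated epithelium 2 had reads, with summed values of 2.55 and 16.3: TEKT1 had 3 and 22 reads, CCDC39 had 1 and 4, and the defining factor FOXJ1 was listed at 0 in both. Their part in the values of KIF19 and KIF27 was not tested.

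The kinesins together had summed values of 4826 and 4488, and differed more in makeup than in sum. Mitotic kinesins made up 10.6% of that sum with control siRNA and 19.7% with SMAD4 siRNA, and transport kinesins 76.5% and 66.0%. KIF1C alone was 55.2% and 46.6%. KIF20A was 4.02% and 7.11%, and KIF2C 2.02% and 4.28%. Shares within a pool do not depend on how the libraries are scaled, but they carry the spread between pigs as every value here does.

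**Figure D3:**
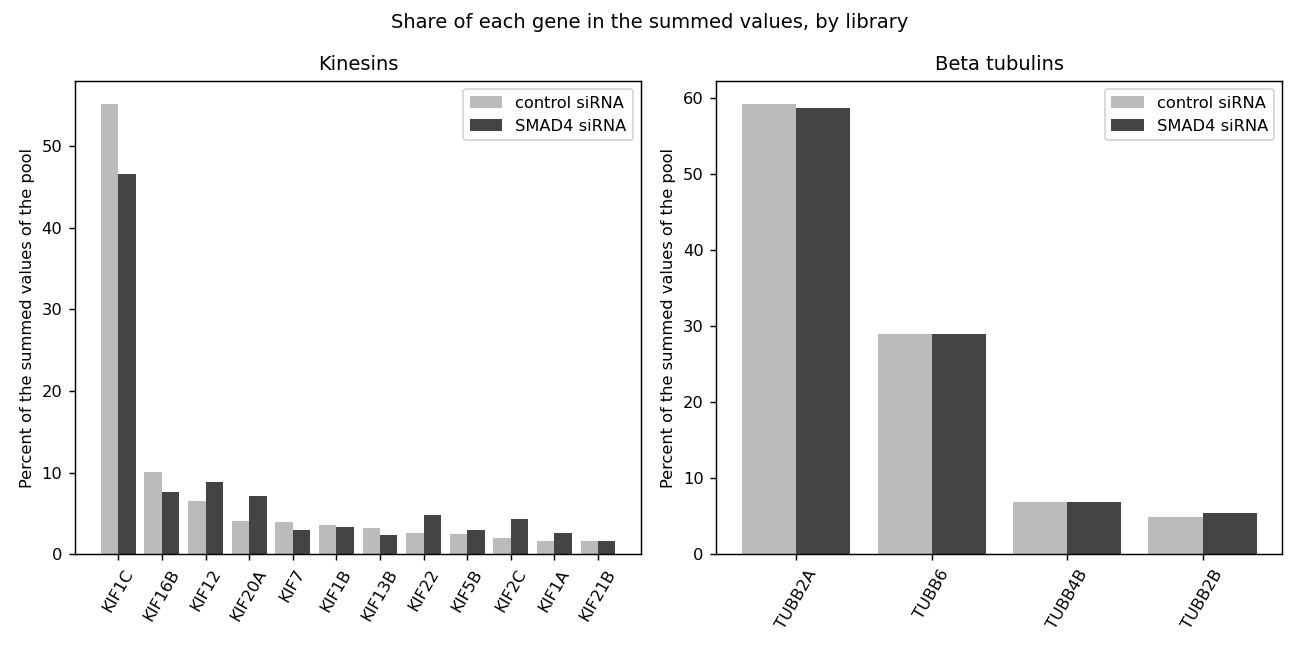
Share (percent) of single genes in the summed values of all kinesins (left, the 12 largest) and of all beta tubulins (right, the 4 largest), light bars for control siRNA and dark bars for SMAD4 siRNA. KIF1C stands at 55.2% and 46.6% of the kinesin sum, while TUBB2A stands at 59.3% and 58.7% of the beta tubulin sum.

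Dynein subunits were slightly lower in the values as deposited, and level after rescaling. Of 8 tested, 6 were below 0, where the background share is 54.7%, and none passed 2-fold. In the background 5.22% were higher and 5.04% lower by 2-fold. The median log2 ratio was -0.10 as deposited and 0.02 with equal sums. DYNC1H1, the motor heavy chain, was at 1612 and 1497 on 10669 and 10910 reads, a ratio of 0.929 (0.904 to 0.954), which became 1.01 (0.981 to 1.04) with equal sums. Intervals lay below 1 for 5 of the 8 subunits as deposited, against 23.9% in the background, and for 0 after rescaling, against 14.8%.

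The cargo-linking chains had ratios from 0.813 to 1.39, with counting intervals that all overlap one another. The intermediate chain DYNC1I2 was at 428 and 443, a ratio of 1.03 (0.920 to 1.16), and its mainly neuronal counterpart DYNC1I1 at 29.2 and 26.5, a ratio of 0.908 (0.620 to 1.33). The light intermediate chain DYNC1LI1 was at 74.5 and 60.5, a ratio of 0.813 (0.661 to 0.999). The light chains DYNLL1 and DYNLRB1, at 5194 and 5190 with control siRNA and at 4889 and 4964 with SMAD4 siRNA, were the most abundant subunits. Their ratios were 0.941 (0.897 to 0.988) and 0.956 (0.916 to 0.998), both above 1 with equal sums. DYNLT1, a light chain of the Tctex family, was at 2526 and 2110, a ratio of 0.835 (0.756 to 0.922), and its relative DYNLT3 at 30.8 and 42.9 on 15 and 23 reads, a ratio of 1.39 (0.696 to 2.87).

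Alpha and beta tubulins were the most abundant members and lay near the background median. The 7 tested had log2 ratios from -0.23 (TUBA1B) to 0.36 (TUBA8), a median of -0.02, and none passed 2-fold. In the background 5.22% were higher and 5.04% lower by 2-fold. TUBA1B, a main alpha tubulin of dividing cells, was at 31353 and 26721 on 45623 and 42815 reads. Its ratio of 0.852 (0.841 to 0.864) became 0.925 (0.913 to 0.937) with equal sums, below 1 under either scale. An entry without a symbol that the reference table names TUBA1A, and that is outside the rule, was at 26438 and 22046, a ratio of 0.834 (0.823 to 0.845). These 2 genes encode nearly the same protein, and the sources used here do not say how reads shared by both were assigned. With that entry, TUBA1B held 54.2% of the alpha tubulin sum with control siRNA and 54.7% with SMAD4 siRNA. Without it the shares were 99.7% and 99.6%.

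The beta tubulins kept their makeup. The entry TUBB2A, a symbol the reference table lists as a synonym of TUBB, was at 20168 and 19569, a ratio of 0.970 (0.958 to 0.983) as deposited and 1.05 (1.04 to 1.07) with equal sums. TUBB6 was at 9846 and 9640 and TUBB4B at 2342 and 2304, with ratios of 0.979 and 0.984 that also move above 1 with equal sums. TUBB2B was at 1675 and 1807, a ratio of 1.08 (1.02 to 1.14). TUBB2A made up 59.3% and 58.7% of the beta tubulin sum, TUBB6 28.9% in both libraries, TUBB4B 6.88% and 6.91%, and TUBB2B 4.92% and 5.42%. The minor alpha tubulins TUBA4A and TUBA8 had ratios of 1.12 (0.813 to 1.55) and 1.28 (0.936 to 1.77).

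In the centrosomal group, TUBG2 stood lowest. Gamma tubulins seed new microtubules. TUBG1, the form found in all dividing cells, was at 1488 and 1481, a ratio of 0.995 (0.939 to 1.05), while TUBG2 was at 739 and 492 on 633 and 464 reads, a ratio of 0.666 (0.589 to 0.752). These intervals do not overlap. The near identity of the 2 genes makes the assignment of reads between them uncertain. Among the complex proteins that bind them, TUBGCP2 was at 1276 and 1359, a ratio of 1.06 (1.02 to 1.12), and TUBGCP3 at 282 and 244, a ratio of 0.863 (0.787 to 0.947). TUBGCP4 and TUBGCP6 had ratios of 0.901 (0.752 to 1.08) and 0.955 (0.867 to 1.05).

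TUBD1 and TUBE1, the delta and epsilon tubulins needed for stable centrioles, were the highest of the group. TUBD1 was at 9.98 and 17.6 on 17 and 33 reads, a ratio of 1.76 (0.954 to 3.37). TUBE1 was at 3.43 and 5.84 on 8 and 15 reads, a ratio of 1.70 (0.678 to 4.64). Both intervals include 1 as deposited. The group as a whole had 3 of 8 tested genes above 0, none past 2-fold, and a median log2 ratio of -0.04. In the background 45.3% were above 0, 5.22% were higher by 2-fold and 5.04% lower.

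**Figure D4:**
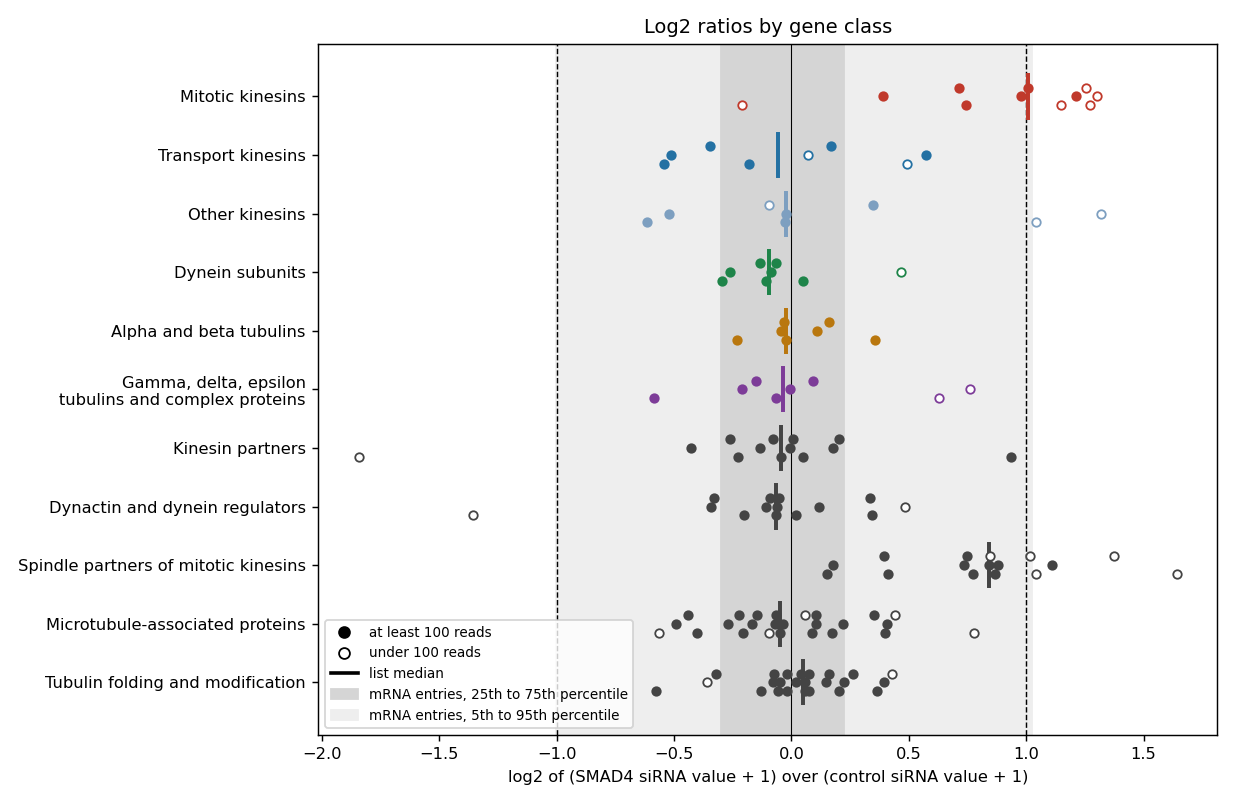
Log2 ratio on the value + 1 scale for each tested gene of the 6 classes and of 5 lists of partner genes, filled for at least 100 reads, with the list median as a bar. Grey bands give the central ranges of 13988 messenger RNA entries and dashed lines mark 2-fold. The medians of mitotic kinesins (1.01) and of their spindle partners (0.84) lie apart from the other 9, which run from -0.10 to 0.05.

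The mitotic kinesin median, which includes KIF11, KIF18A and KIF20B, exceeded those of the other 5 classes by 1.03 to 1.10 on the log2 scale. Among genes with at least 100 reads, which leaves these kinesins out, the gaps were 0.88 to 1.13. Above the minimum mean, none of the transport, dynein or tubulin classes reached the mitotic median, and of the other kinesins KIF19 and KIF27 did. The 95th percentile of all messenger RNA entries tested was 1.02, near that median of 1.01. Few entries of any kind reach it, so its absence from these classes is no trait of theirs. KIF19 and KIF27 passed the minimum only through the SMAD4 siRNA library. Below that minimum, KIF5C and DYNC2H1, both at 0 reads with control siRNA, had log2 ratios above it, whose size depends on the pseudocount. With equal sums alone, all 11 medians of classes and partner lists were above 0, and the gaps between the mitotic and the other classes were 1.03 to 1.10. The background moved too: the median plain ratio of all messenger RNA entries was 0.968 as deposited and 1.05 after rescaling. For dynein subunits it was 1.01 after rescaling, for dynactin and dynein regulators 1.04 and for transport kinesins 1.05. Over the classes other than mitotic kinesins, 31 genes had at least 100 reads, with 23 of them below 0 and 8 above, where 57.8% of messenger RNA entries with as many reads were below 0. Intervals lay wholly below 1 for 15 of these 31, against 32.8%, and wholly above 1 for 5, against 17.8%. After rescaling they lay below 1 for 7, against 19.8%, and above 1 for 10, against 31.3%, so the larger share of lower genes was not seen on that scale.

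**Figure D5:**
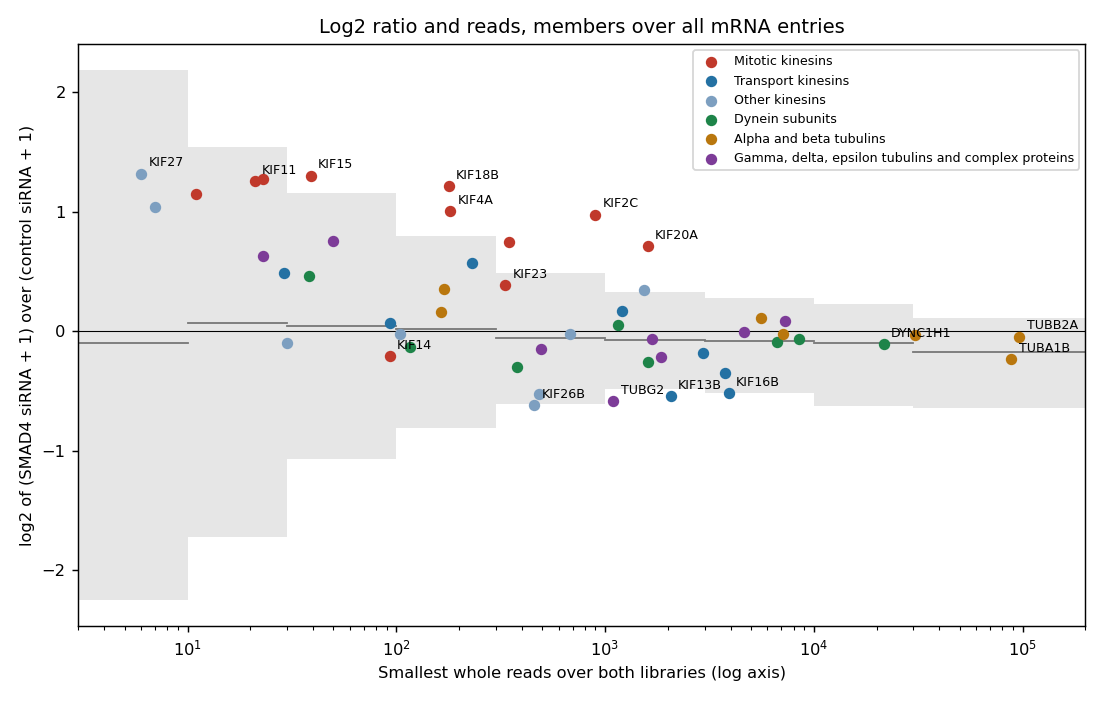
Log2 ratio on the value + 1 scale against the smallest whole reads over both libraries (log axis) for the 50 tested genes, coloured by class. Grey boxes span the 5th to 95th percentile of messenger RNA entries with a similar number of reads, and grey lines mark their medians. KIF2C, KIF4A, KIF12, KIF15, KIF18B, KIF20A and KIF22 lie above their boxes, TUBG2, KIF13B and KIF26B lie below theirs, and the other 40 lie inside.

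Entries with few reads spread widely in these libraries. From 10 to under 30 reads, the 95th percentile of messenger RNA entries was a log2 ratio of 1.54, above KIF11 at 1.25 and KIF20B at 1.27. From 300 to under 1000 reads it was 0.49, under KIF2C at 0.98. KIF15, at 1.30, was above the 1.15 of entries with 30 to under 100 reads, and KIF12, at 0.35, just above the 0.33 of those with 1000 to under 3000. TUBG2 at -0.59 and KIF13B at -0.54 were below the 5th percentile of the last range, which was -0.48. KIF26B, at -0.62, was just below its own of -0.61.

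Partners of these motors were taken from lists written by known function, but with earlier results of these data known. Their counts are therefore no independent support. Of 22 spindle partners of mitotic kinesins listed, 17 had an entry, and PLK1 was at 0 in both libraries. These spindle partners were higher too: 16 of 16 tested were above 0, against 45.3% of messenger RNA entries, and 5 passed 2-fold, against 5.22%. CENPE, a kinetochore kinesin, is among those 5 and reached the minimum only through the SMAD4 siRNA library. The median log2 ratio was 0.84. Those with at least 100 reads numbered 11, of which 10 had an interval wholly above 1, against 17.8%. INCENP, the scaffold of the passenger complex that KIF20A carries, was at 48.4 and 105.6, a ratio of 2.18 (1.63 to 2.95). AURKA and SPAG5, which act at spindle poles, had ratios of 1.83 (1.33 to 2.54) and 1.86 (1.48 to 2.35). RACGAP1, which joins KIF23 in centralspindlin, had 1.32 (1.08 to 1.62), the same to 3 digits as KIF23. KNSTRN had 1.13 (0.860 to 1.495) and NUMA1 1.11 (1.01 to 1.23). KIFC1, a minus-end kinesin whose name the rule does not take, was at 40.0 and 69.1, a ratio of 1.73 (1.26 to 2.39).

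The partners of transport kinesins showed no common direction. Of 13 tested, 5 were above 0, where the background share is 45.3%, and 8 below, with a median of -0.05. The kinesin light chain KLC1 was at 1256 and 1263, a ratio of 1.01 (0.948 to 1.07), a level well above that of the heavy chain KIF5B. Of the adaptors that tie kinesin to mitochondria, TRAK1 was at 0.742 (0.686 to 0.803), TRAK2 at 0.831 (0.699 to 0.987) and RHOT1 at 0.852 (0.669 to 1.08). RHOT2, the relative of RHOT1, was at 0.946 (0.851 to 1.05). After rescaling to equal sums, only TRAK1 of these kept an interval wholly below 1. At the upper end were SYBU, syntabulin, a kinesin adaptor, at 1.96 (1.39 to 2.79), KIFAP3, the third subunit of the KIF3 motor, at 1.15 (0.991 to 1.34), and MAPK8IP1 at 1.13 (1.06 to 1.21). FEZ1, lower by 2-fold where the background share is 5.04%, had 11 and 3 reads.

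Dynactin and dynein regulators had a median log2 ratio of -0.06 over 14 tested genes, or 0.05 with equal sums. CAPZA2, on 26 and 11 reads, was the single gene past 2-fold. It was lower, where the background share is 5.04%. NINL, BICD2 and ACTR1B were lowest among those with at least 100 reads, at 0.789 (0.745 to 0.835), 0.793 (0.702 to 0.896) and 0.868 (0.827 to 0.912). DCTN3 and ACTR10, both dynactin subunits, were highest at 1.27 (1.17 to 1.37) and 1.26 (1.13 to 1.41), followed by HOOK2 at 1.08 (0.868 to 1.36).

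Microtubule-associated proteins had a median of -0.05 over 25 genes, none past 2-fold, where the background shares are 5.22% higher and 5.04% lower. CAMSAP2, which protects minus ends, was at 0.710 (0.666 to 0.757), MAP1B at 0.754 (0.702 to 0.810) and STMN2 at 0.730 (0.490 to 1.08). STMN1, a tubulin-binding destabilizer abundant in dividing cells, was at 1162 and 1541, a ratio of 1.33 (1.18 to 1.49), CLIP2 at 1.32 (1.14 to 1.53) and CLASP2 at 1.29 (1.03 to 1.63). Genes of tubulin folding and modification had a median of 0.05 over 24, none past 2-fold, against the same background shares. VASH2, part of a tubulin detyrosinating enzyme, was at 0.669 (0.568 to 0.789), TTL, which reverses that step, at 0.799 (0.537 to 1.18) and TBCC at 0.913 (0.821 to 1.02). The deacetylase HDAC6 was at 1.29 (1.13 to 1.48), the acetyltransferase ATAT1 at 1.203 (0.886 to 1.64) and PFDN4 at 1.32 (1.06 to 1.64).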

How the data were processed

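The unit of the deposited tables is upper-quartile RPKM, as their names say. Pooled RNA went through the Ion Total RNA-Seq Kit v2.0, per the labels' protocols. The aligner, counter, build and annotation were not given in the sources used here. Whole reads were recovered with divisors of 890 (control) and 980 (SMAD4 siRNA), whose quotient 0.908163 was the commonest ratio between the libraries. All 18428 entries above 0 then gave whole reads at a length of up to 40000 bases (relative tolerance 2e-09, absolute 1e-06). The smallest such reads are lower bounds, so intervals may be too wide. Log2 ratios used a pseudocount of 1, which understates changes of low genes. The steps were tested on simulated data. Python 3.11.15, pandas 2.3.3, numpy 2.4.6, scipy 1.17.1 and matplotlib 3.10.9 were used.

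The members and lists were chosen with earlier results of these data known. Named are SMAD4, every mitotic kinesin with reads, of other classes members with at least 100 reads and the 2 at each end, and up to 3 at each end of partner lists among genes with at least 100 reads. KIFC1, CIT, KLC1, RHOT2, FEZ1, CAPZA2 and the minor members were named after their values were seen. Names for IDs without a symbol were looked up in a RefSeq table (assembly Sscrofa11.1), which named 2090 of 19902. No sequences are shown. Alternatives were other pseudocounts, minimums, thresholds and scalings, and adding entries named from the reference table. Counting intervals after rescaling, and equal sums with the unit, pseudocount and minimum kept, were added after seeing the data.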

Additional observations from a re-analysis of the deposited data

Results flagged for a closer look

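An entry without a symbol, classed as miscellaneous RNA and named KIF3C in the reference table, lies outside the rule and was higher in the SMAD4 siRNA library. KIF3C encodes a kinesin that pairs with KIF3A. The entry was at 2.22 with control siRNA and 26.2 with SMAD4 siRNA, on 1 and 13 reads, a ratio of 11.8 (1.77 to 502). It was singled out because its counting interval lies above 1 in an entry that no comparison used. Of the 7 entries so named, it was the single one with such an interval. Among all messenger RNA entries tested the share was 14.1%, so a count of 1 of 7 is near the background.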

How the results depend on the processing

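The median of mitotic kinesins stayed above 0 under all 9 alternatives, between 0.70 and 1.12, and so did its gap to each other class. Settings that test all 11 kinesins keep KIF11, KIF18A and KIF20B, which passed the minimum only through the SMAD4 siRNA library. They are no support in those medians and counts. Without them the median was 0.86 with a minimum mean of 5, 0.86 with 100 reads and 0.80 as for TPM. With libraries rescaled as for TPM, medians turned positive for dynein subunits (0.021), alpha and beta tubulins (0.094), the centrosomal group (0.048), kinesin partners (0.069), dynactin and dynein regulators (0.050) and microtubule-associated proteins (0.068), and that of tubulin folding genes was 0.165. With equal sums alone, added after seeing the data, these 7 were 0.021, 0.094, 0.082, 0.071, 0.053, 0.069 and 0.166, and transport (0.057) and other kinesins (0.088) turned positive too. Rescaling also moved the median plain ratio of all messenger RNA entries, from 0.968 to 1.05. Without a minimum, transport kinesins turned to 0.071 and alpha and beta tubulins to 0.043. Centring turned other kinesins (0.022), alpha and beta tubulins (0.022) and the centrosomal group (0.010) positive. For mitotic kinesins, 6 higher became 1 with a pseudocount of 5, 1 as for TPM (with 6 of 11 tested), 3 with a minimum mean of 5 and 2 with 100 reads, but 7 when centred or with equal sums alone, and 9 at 1.5-fold. For spindle partners, 5 became 2, 1, 3 and 1 in that order, 12 at 1.5-fold and 13 by intervals, with 5 when centred or with equal sums alone. For other kinesins, 2 became 0 under the first 4 settings. With equal sums alone, 1 kinesin partner was higher. Without a minimum, transport kinesins and dynein subunits each had 1 higher. At 1.5-fold, kinesin partners and microtubule-associated proteins each had 1 higher, the centrosomal group 2 higher and 1 lower, and other kinesins 1 lower. The single lower kinesin partner was lost (0) as for TPM and with 100 reads, and the single lower dynactin gene (0) with 100 reads.

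By intervals, higher and lower genes were 2 and 4 for transport kinesins, 1 and 2 for other kinesins, 0 and 5 for dynein, 1 and 2 for alpha and beta tubulins and for the centrosomal group, 2 and 3 for kinesin partners, 2 and 7 for dynactin, 4 and 6 for microtubule-associated proteins and 6 and 1 for tubulin folding. Among all messenger RNA entries tested, 14.1% were higher and 23.9% lower by intervals. With intervals after rescaling the counts were 2 and 3, 1 and 2, 0 and 0, 5 and 1, 3 and 1, 6 and 1, 2 and 4, 5 and 3, and 12 and 1, with 13 higher spindle partners. The background shares on that scale were 23.6% higher and 14.8% lower. The entry named TUBA1A moved the TUBA1B share to 54.2% and 54.7%. The background of 730 higher and 705 lower messenger RNA entries was 1191 and 1110 over all entries. No paired analysis was possible because each group has 1 library. Stricter minimums and the smaller TPM unit test fewer genes, and heavier pseudocounts weigh on low values; other causes were not tested.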

Other observations

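Several motor and tubulin genes carry only an ID in the deposited tables and were named through the reference table. DYNLL2, the second form of the light chain DYNLL1, had 2128 reads with control siRNA and 1880 with SMAD4 siRNA, a ratio of 0.802 (0.754 to 0.854). An entry named KIF13A, a relative of KIF13B that moves endosomal cargo, was classed as miscellaneous RNA and was at 51.6 and 33.8, a ratio of 0.655 (0.550 to 0.778). That is close to KIF13B at 0.685, while the entry with the symbol KIF13A was listed at 0 in both libraries. TUBB4A was at 37.8 and 30.8, a ratio of 0.815 (0.567 to 1.17). DYNLRB2 had 3 and 1 reads, and the second entry of DYNC2H1 had 1 and 0.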
